A study of Mus musculus with 20 samples.

Results

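The genes described here are 10 heat shock chaperones and co-chaperones of the mouse: Hspa1a, Hspa1b, Hspa8, Hsph1, Dnajb1, Bag3, Hspb1, Hsp90aa1, Hsp90ab1 and Hspd1. They were taken by gene symbol, as the rows named exactly so, and make up 10 of the 37681 genes in each table of gene-level read counts. All 10 were among the 15578 genes detected with at least 5 reads in at least 5 libraries of any table. Livers came from 10 male mice, 12 weeks old, of the strain given as C57/BL6 and, in the growth protocol, as C57/B6J, with no genetic change named in the labels. Of these, 5 had received 20 µg/kg of IL-1β and 5 had received saline (called untreated here), and tissue was collected 4 hours later. RNA of every mouse was sequenced on both the Illumina HiSeq (paired-end reads) and the Ion Torrent Proton (single-end reads of varying length), giving 20 libraries. Each platform's reads were aligned in 3 ways, with GSNAP, with STAR, and with STAR followed by Bowtie2, so that there are 6 tables of 10 libraries. Mice are named as in the labels, with UNT for untreated and ILB for IL-1β, and the libraries of a mouse on both platforms count as 1 mouse.

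Heat shock chaperones bind unfolded or partly folded proteins and, mostly at the cost of ATP, let them fold, hold them in solution or pass them on to degradation. Hsp70 proteins do this in the cytosol together with J-domain co-chaperones, which deliver the substrate, and nucleotide exchange factors, which release it, and Hsp90 takes over clients such as kinases and steroid receptors. Several of these genes are switched on by heat shock factor 1 when unfolded proteins accumulate, while others are made at high levels at all times. IL-1β is an inflammatory cytokine that sets off the acute phase response of the liver. Many chaperone genes have processed pseudogenes, copies of the spliced transcript inserted elsewhere in the genome, and the study's comparison of platforms and aligners makes it possible to ask how many chaperone reads were counted at such copies.

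Library totals lay between 10568530 and 16439683 reads, those of treated mice below those of untreated mice in every table, and normalised read counts are TMM-scaled CPM (the share of a library's reads on the usual CPM scale). Without that scaling the median gene shifted by -0.13 to -0.17 on the log2 scale, so all fold changes are relative to the TMM scale. Summed marker levels are given as CPM of the unscaled library total, without TMM. The tissue carried hepatocyte markers at a summed 59500 to 81200 CPM in treated and 90200 to 123000 in untreated mice. Of these 6 markers, 1 (Hnf4a) was higher and 2 (Alb, Cps1) lower in all 6 tables. The neutrophil markers rose in 7 of 7 tested genes of 8 listed, to a summed 42.7 to 142 CPM in treated mice. Untreated mice had 0.629 to 5.03 in 5 tables and 28.5 to 29.8 in the table of Illumina with STAR and Bowtie2, where Ltf alone made up nearly all of it. Kupffer cell markers gave 1 higher (Marco) and 2 lower (Clec4f, Vsig4) of 6, endothelial markers 2 higher (Cdh5, Lyve1) and 2 lower (Kdr, Tek) of 6, stellate cell markers 1 higher (Ngfr) and 3 lower (Colec10, Lrat, Reln) of 5, and lymphocyte markers none of 4 tested in either direction in all 6 tables. No marker was at 0 over a whole table. In such bulk tissue fewer cells of a type and less RNA per cell cannot be told apart, and the part of these cell types in the results on the chaperones was not tested.

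Of the 10 members, 4 were higher after IL-1β in all 6 tables (Hspa1a, Hspa8, Hsp90aa1 and Bag3), 1 was lower in all 6 (Hspb1), and 5 passed the test in none (Hspa1b, Hsph1, Dnajb1, Hsp90ab1 and Hspd1). The test was edgeR's quasi-likelihood test within each table with Benjamini-Hochberg adjustment over all detected genes, and a gene is called where the adjusted p is below 0.05. The response of this liver was broad, and 47.4, 45.5 and 47.3% of all detected genes were called with Illumina (GSNAP, STAR, STAR with Bowtie2) and 46.2, 42 and 46.6% with Ion Torrent. By direction, 23.6, 22.7 and 22.9% were higher and 23.8, 22.9 and 24.4% lower with Illumina, and 22.4, 20.3 and 22.7% higher and 23.8, 21.7 and 23.9% lower with Ion Torrent. Being called in the same direction in all 6 tables was the case for 34.9% of the detected genes, 17.3% higher and 17.5% lower. The share of members called, 5 of 10, was therefore near the background. Their median log2 fold change was 0.39 to 0.50 over the 6 tables, against -0.014 to 0 for all detected genes.

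**Figure D1:**
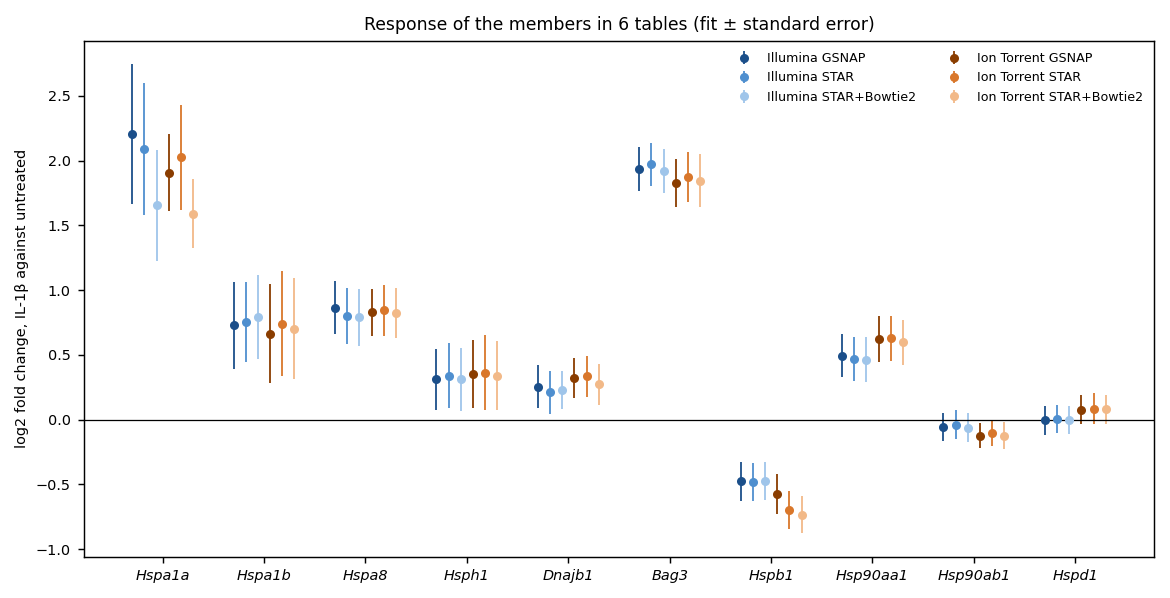
Log2 fold change of IL-1β against untreated (y axis) for each of the 10 members (x axis), with a point for each of 6 tables and bars of 1 standard error derived from the edgeR test. Bag3 sits between 1.83 and 1.97 in every table, Hspa1a is as high with wider bars, and Hspb1 is the only member below -0.4.

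Coding sequences that bear on where a chaperone read can be placed are shown first. A script matched every annotated pseudogene to its closest protein-coding transcript, and 22 pseudogenes had a member as the best match at 80% identity or more over at least 200 bases: 5 of Hspa8, 4 of Hsp90aa1, 4 of Hsp90ab1, 8 of Hspd1 and 1 of Hspb1. The stretches below are of 125 bases, the Illumina read length, taken from the coding sequence within 1 exon where the member and its first-named copy differ most (build NCBIM37, equal to mm9). Only stretches that align without a gap to every copy shown were considered. Capitals in a member mark bases at which a copy shown differs, and capitals in a copy mark its differences from the member.
Hspa8, chr9:40610822-40610946, plus strand: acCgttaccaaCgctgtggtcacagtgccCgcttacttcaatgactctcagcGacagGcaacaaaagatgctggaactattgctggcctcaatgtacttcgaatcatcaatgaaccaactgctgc
Gm15459, chr5:5783020-5783144, minus strand: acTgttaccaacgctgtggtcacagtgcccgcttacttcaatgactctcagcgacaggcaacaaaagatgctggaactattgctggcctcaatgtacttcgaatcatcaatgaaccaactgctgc
Gm8355, chr10:14466573-14466697, minus strand: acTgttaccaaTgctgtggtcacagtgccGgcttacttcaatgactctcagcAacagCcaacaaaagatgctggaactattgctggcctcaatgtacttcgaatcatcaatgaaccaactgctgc
Hsp90aa1, chr12:111933504-111933628, minus strand: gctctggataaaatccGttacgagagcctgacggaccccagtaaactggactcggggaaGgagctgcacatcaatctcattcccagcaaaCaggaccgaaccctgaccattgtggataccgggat
Gm12346, chr11:77107160-77107284, plus strand: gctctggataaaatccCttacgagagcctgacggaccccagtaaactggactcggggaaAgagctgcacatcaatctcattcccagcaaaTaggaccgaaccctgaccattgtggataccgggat
Hspb1, chr5:136365155-136365279, plus strand: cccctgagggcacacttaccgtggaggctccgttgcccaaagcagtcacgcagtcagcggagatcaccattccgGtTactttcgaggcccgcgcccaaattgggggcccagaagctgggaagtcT
Hsp25-ps1, chr13:45173888-45174012, minus strand: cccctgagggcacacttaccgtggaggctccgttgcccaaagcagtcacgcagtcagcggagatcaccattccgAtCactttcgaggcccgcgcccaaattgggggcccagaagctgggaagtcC
Hspd1, chr1:55143640-55143764, minus strand: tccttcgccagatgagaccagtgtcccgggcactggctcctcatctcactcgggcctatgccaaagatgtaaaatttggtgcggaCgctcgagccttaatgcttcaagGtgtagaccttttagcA
Gm12141, chr11:41312258-41312382, plus strand: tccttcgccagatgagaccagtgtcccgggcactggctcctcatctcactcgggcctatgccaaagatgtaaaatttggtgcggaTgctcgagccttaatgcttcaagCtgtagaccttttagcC
Hspa1a, chr17:35107455-35107579, minus strand: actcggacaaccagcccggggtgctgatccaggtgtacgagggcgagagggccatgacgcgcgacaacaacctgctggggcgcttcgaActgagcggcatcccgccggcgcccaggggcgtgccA
Hspa1b, chr17:35094537-35094661, minus strand: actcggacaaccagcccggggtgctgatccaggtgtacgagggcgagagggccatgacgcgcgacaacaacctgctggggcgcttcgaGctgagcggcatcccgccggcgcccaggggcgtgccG
In these coding stretches Hspa8 and Gm15459 are separated by 1 base in 125, and Hspa1a and Hspa1b by 2. The untranslated parts of the exons, where reads are also counted, were not searched in this way and may differ more. Gm8355 differs from Hspa8 at 5 of the same bases.

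Over the whole coding sequence, Gm15459 differed from Hspa8 at 5 of 1941 bases, and 66.2% of all stretches of 125 bases were identical between them. Gm8355 differed at 24 of 1863 aligned bases with 31.8% of stretches identical, Gm12346 from Hsp90aa1 at 11 of 2202 with 51.3%, and Gm5844 from Hsp90aa1 at 21 of 2191 with 22.6%. Hsp25-ps1 differed from Hspb1 at 4 of 594 aligned bases with 53.2% of stretches identical, and Gm12141 from Hspd1 at 18 of 1722 with 31.1%. By contrast Gm6368, the pseudogene of Hsp90ab1 with the most reads, differed at 171 of 2146 aligned bases and shared no identical stretch with it. Hspa1a and Hspa1b, which are both active genes, differed at 8 of 1926 coding bases, and 60.8% of their stretches were identical. Hsph1, Dnajb1 and Bag3 had neither an annotated pseudogene by this rule nor another copy in the genome at 95% identity over 200 bases, whereas Hspa8 had 7 such copies, 5 of them in no annotated gene.

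The share of a family's reads that was counted at pseudogenes depended on aligner and platform, and for 4 families GSNAP put the most there. With Illumina and GSNAP, the Hspa8 gene held 8444 reads on average and its 5 pseudogenes 8466.9, so that 50.1% ± 0.893 (SD, n = 10 mice) of the family's reads lay at pseudogenes, against 2.28% ± 0.153 with STAR and 3.36% ± 0.311 with STAR and Bowtie2. Gm15459 alone took 6448.5 reads per library with GSNAP and 287.8 with STAR. In the Ion Torrent libraries of the same RNA, the Hspa8 share came to 16.2% ± 0.836 (GSNAP), 0.131% ± 0.024 (STAR) and 7.28% ± 0.691 (STAR with Bowtie2). With Illumina GSNAP, Gm8355 held 2015.8 reads a library, fewer than Gm15459. In the Ion Torrent GSNAP table the order turned, with 848.1 reads at Gm8355 and 213.9 at Gm15459.

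Hsp90aa1 and Hspb1 lost reads in the same way. At the pseudogenes of Hsp90aa1, mainly Gm12346, lay 52% ± 0.829 of the family's Illumina reads with GSNAP, 2.3% ± 0.295 with STAR and 4.12% ± 0.602 with STAR and Bowtie2. For Ion Torrent these shares were 31.9% ± 1.99, 0.389% ± 0.173 and 22.1% ± 1.69, so that here the added Bowtie2 step counted reads at pseudogenes that STAR alone did not. Hsp25-ps1 took 51.8% ± 4.29 of the Hspb1 family with Illumina GSNAP and 2.81% ± 1.34 with Illumina STAR. The Ion Torrent values for Hspb1 were 34.1% ± 2.97 with GSNAP, 0.646% ± 0.458 with STAR and 5.56% ± 1.31 with STAR and Bowtie2.

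With Illumina GSNAP, Hspd1 lost a smaller share than those 3 families and Hsp90ab1 the smallest. With Ion Torrent GSNAP the Hspd1 share was above that of Hspa8, and with Ion Torrent STAR and Bowtie2 above those of Hspa8 and Hspb1. The Hspd1 share was 30.3% ± 0.403 with Illumina GSNAP, 2.84% ± 0.327 with Illumina STAR, 24.7% ± 0.547 with Ion Torrent GSNAP and 19.8% ± 1.61 with Ion Torrent STAR and Bowtie2. For Hsp90ab1 it stayed between 0.0176 and 3.2% on average in all 6 tables. GSNAP placed more at pseudogenes than STAR in 10 of 10 mice for each of the 5 families on both platforms, by 27.5 to 49.7 percentage points for the 4 families above and 0.194 for Hsp90ab1 with Illumina (exact two-sided sign-flip permutation test over 10 mice, p = 0.00195, the smallest it can give, adjusted p = 0.00207 over 35 comparisons). With Ion Torrent these differences were 16.1 points for Hspa8, 24.3 for Hspd1, 31.5 for Hsp90aa1, 33.5 for Hspb1 and 2.82 for Hsp90ab1. Of the 35 comparisons between aligners or platforms, 34 passed, and the other was Hspb1 with Illumina between STAR with Bowtie2 and STAR alone (0.624 points, higher in 8 of 10 mice, exact permutation p = 0.0898).

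**Figure D2:**
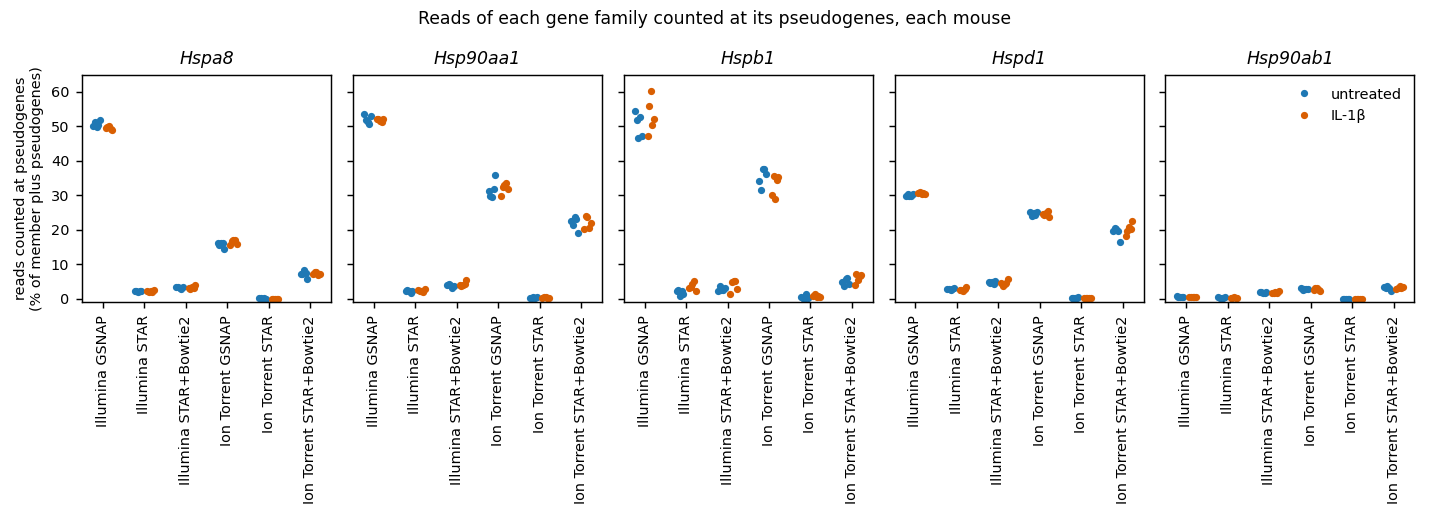
Percent of a family's reads counted at pseudogenes (y axis) for 5 families, with a point for each mouse in each of 6 tables (x axis) and colours for treated and untreated mice. Treated and untreated points lie close together within a table, while GSNAP stands at 50.1% for Hspa8 with Illumina and STAR at 2.28%.

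Between treated and untreated mice the mean shares differed by at most 2.64 percentage points (Hspb1 with Illumina GSNAP). Of 30 such comparisons 3 had an unadjusted p below 0.05, the smallest being an exact permutation p of 0.00794 (5 mice against 5, the smallest possible, adjusted p = 0.238) for Hspd1 with Illumina GSNAP, a difference of 0.63 points with groups that do not overlap. At this number of mice a single comparison cannot pass the adjustment, so that none passed does not show the shares to be alike. The gene's own counts shifted with the aligner: STAR gave 2.41 ± 0.07 times (SD over 10 mice) the GSNAP count of Hspa8 with Illumina and 1.92 ± 0.066 times with Ion Torrent, and 2.02 ± 0.054 and 1.28 ± 0.051 times for Hsp90aa1. For Hspb1 the ratio was 1.95 ± 0.173 with Illumina and 1.47 ± 0.114 with Ion Torrent. The members with no pseudogene went the other way, Bag3 for instance at 0.92 ± 0.034 and 0.82 ± 0.027. So did Hsp90ab1, which has pseudogenes, at 0.95 ± 0.009 and 0.89 ± 0.006. The STAR tables hold fewer reads in all, and the part of this in the ratios was not tested. Adding the reads of its pseudogenes to a member kept every member's call in all 6 tables.

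On both platforms, adding the pseudogenes did not bring the GSNAP count of Hspa8 up to that of STAR. As CPM of the unscaled library total, the Hspa8 family stood at 658.8 with Ion Torrent GSNAP, 1266 with STAR and 1343 with STAR and Bowtie2, and with Illumina at 1483, 1931 and 1829. For Hspb1 the family totals on this scale were closer, at 19.87, 23.16 and 21.87 with Ion Torrent and 16.98, 17.32 and 16.69 with Illumina. Where the remaining Hspa8 reads of the GSNAP tables were placed was not tested.

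Hspa8 encodes Hsc70, the constitutively made Hsp70 of the cytosol (chr9:40609067-40613283, reads counted over its exons). In the Illumina STAR table its normalised read count was 2484, 3075, 2393, 2251 and 1959 in treated mice ILB_9577, ILB_9578, ILB_9579, ILB_9582 and ILB_9583, and 746.5, 1700, 1087, 1508 and 1937 in untreated mice UNT_9574, UNT_9575, UNT_9576, UNT_9580 and UNT_9584, and other values by mouse follow this order. The groups only just missed each other, with untreated mouse UNT_9584 at 1937 and treated mouse ILB_9583 at 1959. The log2 fold change was 0.80 with a standard error of 0.218 (edgeR, adjusted p = 0.00831). In the Ion Torrent STAR table the treated mice, in the same order, had 1488, 2251, 1621, 1632 and 1220 and the untreated mice 576.4, 1153, 728.9, 1102 and 1010 normalised reads, again with every treated mouse above. Over the 6 tables the log2 fold change was 0.79 to 0.86 (edgeR, adjusted p = 0.00158 to 0.00902), although the level itself differed with the aligner. Treated and untreated mice overlapped in 1 table only, Illumina with STAR and Bowtie2, while 31.1 to 35.2% of all detected genes had no overlap in a table. Its pseudogenes followed it: with Illumina GSNAP, Gm15459 had a log2 fold change of 0.78 ± 0.22 (SE; edgeR, adjusted p = 0.00983) and Gm8355 of 0.80 ± 0.23 (adjusted p = 0.0119), in reads they may share with Hspa8. Small nucleolar RNA genes inside Hspa8 (Snord14c, Snord14d, Snord14e) held 0 reads in all 6 tables.

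Hspa1a and Hspa1b encode the stress-inducible Hsp70, are single-exon neighbours on the minus strand (chr17:35106144-35109069 and chr17:35093381-35096183), and were both low in this liver. Hspa1a had raw counts of 22, 22, 6, 10 and 4 in treated and 1, 3, 3, 2 and 6 in untreated mice of the Illumina GSNAP table, with overlap. In the Ion Torrent GSNAP table the counts were 49, 63, 45, 42 and 38 in treated and 8, 9, 13, 13 and 26 in untreated mice, with none. The log2 fold change was 2.21 ± 0.538 (SE; edgeR, adjusted p = 0.0031) in the former and 1.91 ± 0.297 (adjusted p = 5.6e-05) in the latter. Over the 6 tables it lay between 1.59 and 2.21, on mean counts of 6.4 to 62.3 reads a library. The groups did not overlap in 4 tables.

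Hspa1b held more reads and passed the test in no table. Its normalised read counts with Illumina GSNAP were 13.27, 13.36, 7.21, 8.49 and 7.13 in treated mice and 2.54, 7.68, 3.24, 6.78 and 9.75 in untreated mice. Untreated mouse UNT_9584 stood above 3 of the 5 treated mice. The log2 fold change was 0.73 ± 0.339 (SE; edgeR, adjusted p = 0.0983), and it lay at 0.66 to 0.79 over the 6 tables with adjusted p from 0.0581 to 0.188. Without mouse UNT_9584 the gene was called in 4 tables, with a log2 fold change of 0.97 (edgeR, adjusted p = 0.0333) with Illumina GSNAP and 0.96 (adjusted p = 0.0467) with Ion Torrent GSNAP, and without mouse UNT_9575 in 1 table.

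Since reads from both genes are hard to separate, the pair was also treated as a unit. Hspa1a made up 9.66% ± 3.55 (SD, n = 5) of the pair's reads in treated and 4.12% ± 1.9 in untreated mice with Illumina GSNAP (exact two-sided permutation test, p = 0.0238, adjusted p = 0.0286 over 6 comparisons). With Ion Torrent GSNAP these shares were 12.6% ± 1.25 and 6.36% ± 2.76 (exact permutation p = 0.00794, the smallest possible, adjusted p = 0.0159). The difference ran the same way in the other 4 tables, by 4.87 to 6.69 percentage points. The Illumina calls rest on few reads, 64 to 117 of Hspa1a over a table, and each was lost without some single mouse: without untreated mouse UNT_9574, UNT_9575 or UNT_9580 with GSNAP (difference of 5.12 to 5.28 points, exact permutation p = 0.0556), without UNT_9574, UNT_9575, UNT_9580 or treated mouse ILB_9578 with STAR (3.85 to 4.58), and without treated mouse ILB_9577 or ILB_9578 with STAR and Bowtie2 (4.54 and 4.91). STAR with Bowtie2 gave Hspa1a the larger share in both groups, 18.4% ± 1.13 and 11.7% ± 2.21 with Ion Torrent. Fitted as 1 gene, the pair had a log2 fold change of 0.77 to 0.89 and passed the test in 2 of 6 tables (edgeR, adjusted p = 0.0431 to 0.137). Gm20481, which is annotated over Hspa1a on the other strand, held 0 reads.

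Hsph1 encodes Hsp110, which acts as a nucleotide exchange factor of Hsp70 (chr5:150416862-150438951). With Illumina GSNAP its normalised read counts were 134.9, 194.9, 128.3, 116.3 and 100.4 in treated mice and 67.7, 155.9, 81.1, 100.9 and 137.5 in untreated mice. Mouse-to-mouse spread was wide in both groups, and they overlapped. Its log2 fold change was 0.31 ± 0.236 (SE; edgeR, adjusted p = 0.308), and 0.31 to 0.36 over the 6 tables with adjusted p of 0.302 or more.

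Dnajb1 encodes Hsp40, the J-domain partner of the inducible Hsp70 (chr8:86132074-86135801). Its normalised read counts with Illumina GSNAP were 29.3, 39.5, 28.7, 36.6 and 27.6 in treated mice and 16.5, 29.1, 26.8, 29.6 and 33.6 in untreated mice. The groups overlapped, with mouse UNT_9574 alone far below the rest. This gave a log2 fold change of 0.26 ± 0.165 (SE; edgeR, adjusted p = 0.225), and at most 0.34 in any table (Ion Torrent STAR, adjusted p = 0.102). Without untreated mouse UNT_9584 it was called in 2 Ion Torrent tables, GSNAP (log2 fold change 0.42, edgeR, adjusted p = 0.0417) and STAR (0.45, adjusted p = 0.0293).

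Bag3 encodes a co-chaperone that binds Hsp70 through its BAG domain and small heat shock proteins, and steers clients to autophagy (chr7:135667097-135690491). It showed the clearest separation of the 10 members. With Illumina GSNAP the treated mice had 108.8, 103.7, 108.3, 117.3 and 114.4 normalised reads and the untreated mice 19.3, 42.6, 31.04, 22.7 and 28.9. The treated mice were close to each other, at a mean of 110.5 ± 5.37 (SD, n = 5) against 28.9 ± 8.99. With Ion Torrent GSNAP the values were 131.1, 112.4, 130.8, 143.2 and 147.4 in treated and 25.2, 55.6, 38.9, 25.95 and 41.8 in untreated mice, with mouse UNT_9575 the highest untreated mouse on both platforms. In log2 the fold change was 1.94 ± 0.167 (SE; edgeR, adjusted p = 3.2e-07) with Illumina and 1.83 ± 0.188 (adjusted p = 1.97e-06) with Ion Torrent. Over the 6 tables Bag3 was 3.55 to 3.92 times as high in treated mice, every treated mouse was above every untreated mouse, and the call held under each alternative test and without any 1 mouse.

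**Figure D3:**
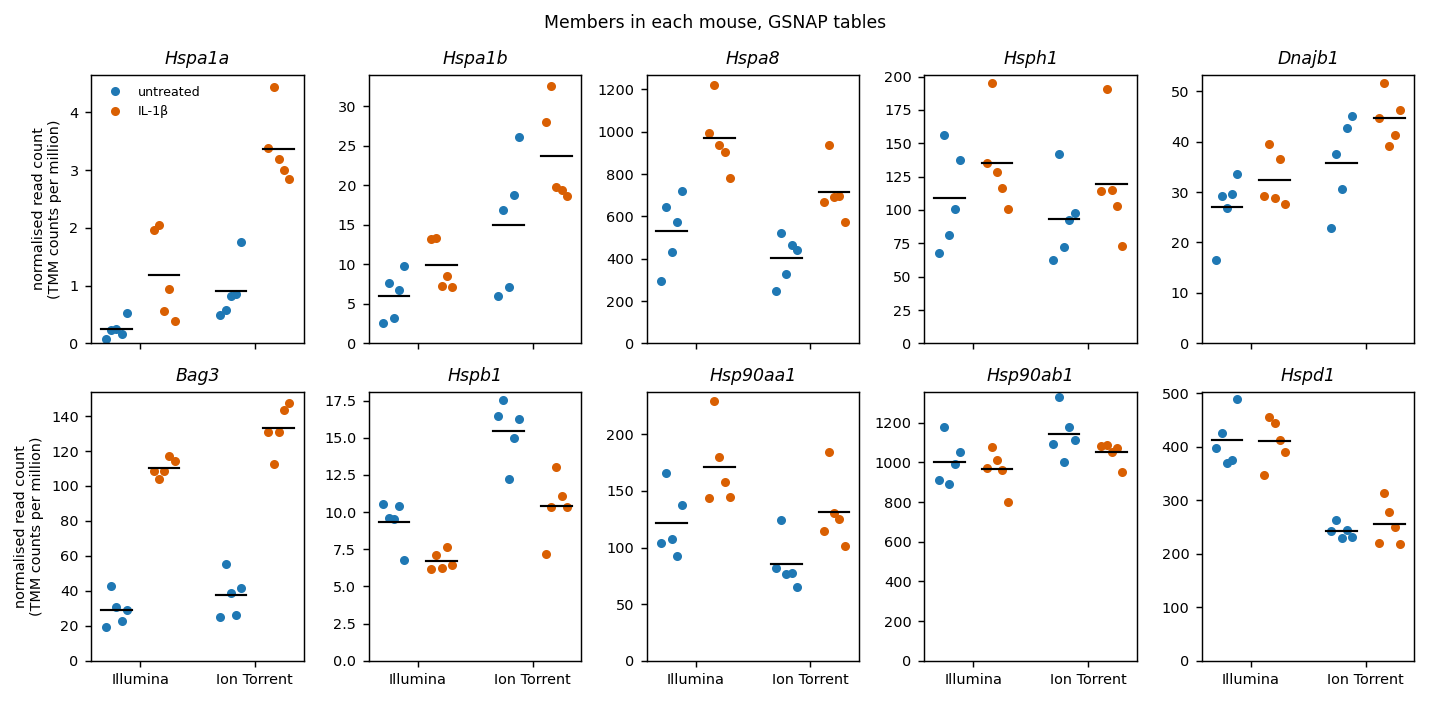
Normalised read count (y axis, TMM-scaled CPM) of each member in each mouse of the GSNAP tables of both platforms, with a point a mouse and a line at the mean of 5. The treated Bag3 points lie above 100 and the untreated ones below 60 on both platforms, while the Hsp90ab1 and Hspd1 groups overlap.

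Hspb1 encodes the small heat shock protein Hsp25 (Hsp27 in humans), which holds unfolded proteins without ATP (chr5:136363789-136365433), and it was the 1 member that was lower. In the Ion Torrent STAR table, in which hardly any of its reads lay at the pseudogene, its normalised read counts were 11.02, 18.5, 19.4, 20.04 and 18.1 in treated and 31.04, 30.6, 22.9, 28.1 and 28.3 in untreated mice. Every treated mouse was below every untreated mouse there. This gave a log2 fold change of -0.70 ± 0.149 (SE; edgeR, adjusted p = 0.000832). In the Illumina STAR table the values were 11.7, 16.4, 14.99, 14.2 and 12.4 in treated and 22.1, 19.1, 20.5, 22.5 and 12.9 in untreated mice, where untreated mouse UNT_9584 lay among the treated mice. The log2 fold change in that table was -0.48 ± 0.15 (edgeR, adjusted p = 0.0149), and over all 6 tables -0.73 to -0.48. Treated and untreated mice were without overlap in 2 tables only, Ion Torrent with STAR and with STAR and Bowtie2, and overlapped in the others. Hsp25-ps1 had a log2 fold change of -0.72 ± 0.174 (edgeR, adjusted p = 0.00265) with Ion Torrent GSNAP and -0.33 ± 0.197 (adjusted p = 0.186, not called) with Illumina GSNAP.

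The pair of cytosolic Hsp90 genes differed in their calls, Hsp90aa1 (the inducible form, chr12:111928815-111940938) passing the test and Hsp90ab1 (the constitutive form, chr17:45704724-45710220) not. Hsp90aa1 had, with Illumina STAR, normalised read counts of 309.4, 486.4, 379.7, 339.6 and 306.5 in treated and 233.3, 357.8, 223.6, 194.1 and 305.1 in untreated mice. Untreated mouse UNT_9575 was above 3 treated mice, and the groups overlapped in all 6 tables. In log2 the fold change was 0.47 ± 0.169 (SE; edgeR, adjusted p = 0.0329) with Illumina STAR and 0.63 ± 0.172 (adjusted p = 0.00771) with Ion Torrent STAR. The Illumina call was lost in all 3 Illumina tables when mouse UNT_9574, UNT_9576, ILB_9578, ILB_9579 or UNT_9580 was left out, with a log2 fold change of 0.32 to 0.46 and adjusted p of 0.054 to 0.113, and no such fit lost the Ion Torrent call. Hsp90ab1 had 973, 1077, 1013, 960.2 and 802.8 normalised reads in treated and 910.5, 1176, 892.2, 993.6 and 1050 in untreated mice with Illumina GSNAP. Its log2 fold change was -0.06 ± 0.111 (edgeR, adjusted p = 0.716) and lay between -0.12 and -0.04 over the 6 tables. A difference between the responses of the pair was not tested.

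Hspd1 encodes Hsp60, the chaperonin of the mitochondrial matrix (chr1:55134679-55145087). With Illumina GSNAP its normalised read counts were 347.6, 456.2, 443.7, 413.2 and 389.8 in treated and 397.7, 426.2, 370.2, 375.1 and 488.8 in untreated mice. The highest value was in untreated mouse UNT_9584, and the groups lay within each other. Its log2 fold change was between -0.01 and 0.08 over the 6 tables, with standard errors of 0.109 to 0.12 (edgeR, adjusted p of 0.579 or more). Hspe1, its partner Hsp10, overlaps it on the opposite strand and held 608 to 1319.7 reads a library on average. Both library kits keep the strand, but whether the counting used it was not tested. Hspe1 was not called.

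Per length, the members spanned more than 3 orders of magnitude in untreated liver in the Illumina STAR table. On the scale of normalised reads per kilobase of exon in the Illumina STAR table, Hspa8 stood at 336 ± 115 (SD, n = 5) and Hsp90ab1 at 335 ± 38, followed by Hspd1 at 210 ± 25.5 and Hsp90aa1 at 66.9 ± 17. Lower were Hspb1 at 18.8 ± 3.76, Hsph1 at 14.9 ± 5.31, Bag3 at 10.8 ± 3.44 and Dnajb1 at 10.6 ± 2.66, and these last 3 did not differ beyond their spread. Hspa1b at 1.97 ± 0.983 and Hspa1a at 0.0788 ± 0.0494 came last. The width of the span rests on Hspa1a, whose reads are hard to separate from those of Hspa1b. With Ion Torrent, STAR and Bowtie2 the span was narrower, from 0.674 for Hspa1a to 371 for Hsp90ab1. The order depends on the aligner: in the Illumina GSNAP table Hspa8 fell to 128 ± 40.9, below Hspd1 at 156 ± 18.4, with Hsp90ab1 first at 335 ± 38.4. Merged exons of Hspa8 (4156 bases) and Hsph1 (7042) are longer than their longest coding transcripts (2394 and 3802), and the order also turns with this length. Per kilobase of the longest coding transcript, Hspa8 stood above Hspd1 with Illumina GSNAP, at 222 against 170. With Illumina STAR it stood above Hsp90ab1 at 583 against 398, and Hsph1 at 27.7 was above Hspb1 at 20.9.

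The response to IL-1β did not differ detectably between platforms for any member. The difference in log2 fold change, Ion Torrent minus Illumina, was fitted to all 20 libraries at once for each aligner, each mouse being a block, and 0 of 10 members were called with each of the 3 aligners by edgeR, DESeq2 or limma-voom, none of them at an unadjusted edgeR p below 0.05, where 0.077, 0.00642 and 0.0706% of all detected genes were called by edgeR (GSNAP, STAR, STAR with Bowtie2). Hspb1 had the largest value in the STAR tables, -0.22 ± 0.159 (SE), and -0.28 ± 0.154 with STAR and Bowtie2 (edgeR, unadjusted p = 0.0821, adjusted p = 0.685). For Bag3 the difference was -0.11 ± 0.086 with GSNAP and for Hspa8 -0.06 ± 0.079. For Hspa1a it was -0.27 ± 0.461 with GSNAP, an error that would hide a change of similar size.

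Several members went up and down together between mice of the same treatment. A deviation is the log2 normalised read count of a mouse minus the mean of its treatment, averaged here over the 10 members. In the Illumina GSNAP table untreated mouse UNT_9574 lay at -0.45, with 9 of 10 members below their mean, and mouse UNT_9575 at 0.31 with all 10 above. Treated mouse ILB_9578 lay at 0.34 with 9 members above, and treated mouse ILB_9583 at -0.29 with 9 below. The Ion Torrent GSNAP libraries of the same RNA gave -0.39, 0.29, 0.29 and -0.19 for these 4 mice. So the untreated group held mice whose chaperone levels differed from each other by as much as some of the treatment effects.

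By member, Hsph1 went most closely with the others, at a median Pearson correlation of 0.749 over 10 mice with Illumina GSNAP and 0.692 with Ion Torrent GSNAP, while Hspb1 stood at -0.35 and 0.173. Bag3, with 0.409 and 0.241, followed the other members less, and Hspa1a, with 0.576 and 0.066, was the lowest with Ion Torrent GSNAP. Members of 1 library share its scaling and sequencing, so these correlations are descriptions. Between platforms the deviations of the same mice correlated at 0.975 for Hspa1b, 0.958 for Bag3, 0.944 for Hsph1 and 0.934 for Hspa8 in the GSNAP tables, and at 0.05 for Hspb1. Mouse UNT_9584 lowered some of them, Hsp90aa1 standing at 0.737 with it and 0.932 without it, and Hspd1 at 0.577 and 0.835.

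**Figure D4:**
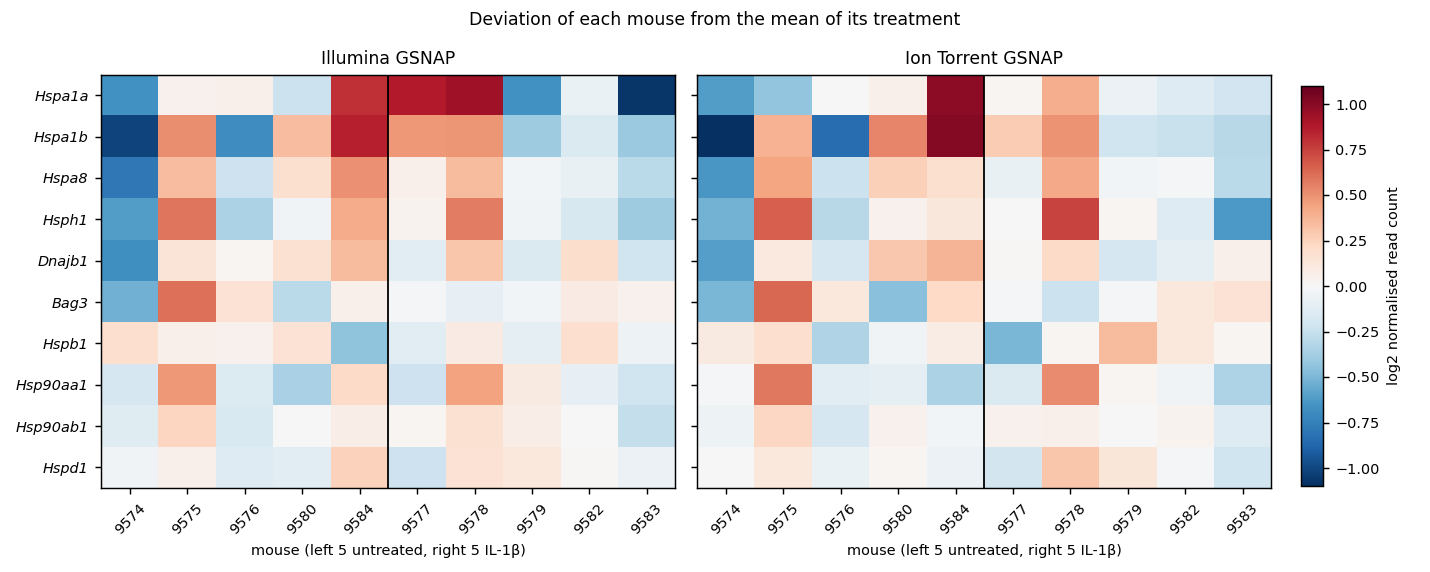
Deviation of each mouse from the mean of its treatment (colour, log2 normalised read count) for each member (rows) and mouse (columns) in the GSNAP tables of both platforms, with untreated mice left of the black line. Mouse UNT_9574 is blue in most rows and mice UNT_9575 and ILB_9578 are red, on both platforms.

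Outside the members, about 8000 genes averaging 100 reads or more in both GSNAP tables were compared with the members' mean deviation over the 10 mice. Most like it, by the smaller Pearson correlation of both tables, were Atp2a2 (0.93), a calcium pump of the endoplasmic reticulum, Chordc1 (0.888), an Hsp90 co-chaperone, Uspl1 (0.878), the pseudogene Gm8355 (0.856), Slc20a1 (0.841), a phosphate transporter, and Dnaja1 (0.823), a J-domain partner of Hsc70. Gm8355 can share reads with Hspa8. As the highest of about 8000 correlations over 10 mice, such values can arise by selection alone. Both tables come from the same RNA, so these are descriptions only.

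Heat shock factor 1 binds inverted repeats of the letters GAA, so the RefSeq promoter windows (250 bases before to 50 after a transcript start, build GRCm38.p6) of 7 members were searched for GAANNTTC and TTCNNGAA, each of which reads the same on both strands and which may overlap. Either motif was in 15.1% of 32851 windows, and a run of 3 alternating units (GAA and TTC in turn, with 2 free bases between them) in 0.603%. The stretches of 30 bases below show the matches in capitals, for the members with the most matches and for the inducible Hsp70.
Hspd1, chr1:55088053-55088082, minus strand: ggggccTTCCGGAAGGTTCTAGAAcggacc
Hsph1, chr5:149636287-149636316, minus strand: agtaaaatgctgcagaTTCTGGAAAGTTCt
Hspb1, chr5:135887801-135887830, plus strand: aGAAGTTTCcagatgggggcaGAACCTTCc
Hspa1a, chr17:34972242-34972271, minus strand: cgaaactgctgGAAGATTCctggccccaag
Hspd1 had 3 overlapping matches, the first of them 144 bases before 1 of its starts, and Hsph1 had 2 overlapping matches that begin 36 bases after 1 of its starts and 1 more 33 bases before it, which lie 15 bases after and 54 before its other start. Both contain the run of 3 units. Hspb1 had matches 117 and 97 bases before its start and Hspa1a and Hspa1b 1 each at 104 bases, in upstream sequences that differ at 3 of 250 bases. Bag3 had 1 match, 42 bases after its start, and Dnajb1 none in 2 windows. Members with a match thus included called genes (Bag3, Hspa1a, Hspb1) and genes called in no table (Hspd1, Hsph1, Hspa1b). A match is a description of the letters in these windows only.

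The other chaperone genes were described by fixed lists of 79 genes, with counts of those called in all 6 tables. Of all detected genes, 17.3% were higher and 17.5% lower in all 6 tables, 34.9% together. A count near these shares, in this and the lists that follow, is not particular to its list. Of the 4 genes in the list of heat shock factors, which holds the transcription factors Hsf1, Hsf2 and Hsf4 and the factor-binding protein Hsbp1, none was higher and 2 were lower in all 6 tables, Hsf2 at a log2 fold change of -1.41 to -1.33 and Hsf4 at -1.82 to -1.50 (edgeR, adjusted p of at most 2.19e-05 and 0.000224), while Hsf1 was called in 1 table and Hsbp1 in 2. The median log2 fold change of the 4 genes was -0.81 to -0.76 over the 6 tables. Of the other Hsp70 and Hsp110 genes, 4 of 7 tested were higher and 1 lower. Hspa2 had a log2 fold change of 1.80 to 2.06 and Hspa13, an Hsp70 of the endoplasmic reticulum, of 1.38 to 1.43, while Hspa12a, a distant relative, was lower at -1.72 to -1.41.

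J-domain co-chaperones were higher in 5 of 16 and lower in 1, among them Dnajb5 at 1.31 to 1.39, Dnajc21 at 0.63 to 0.82 and Dnajc5, a partner of Hsc70 on secretory vesicles, at 0.64 to 0.69, with Dnajb4 lower at -0.80 to -0.45. Of the 8 binding and exchange partners of Hsp70 other than Bag3 (Bag1, Stub1 and others), none was called in one direction in all 6 tables by edgeR, 0 or 1 being higher and 1 to 3 lower in single tables, and 4 were called in none. Of 13 Hsp90 co-chaperones 4 were higher and 2 lower, with a median log2 fold change of 0.25 to 0.38 over the 6 tables. The immunophilins Fkbp4 and Fkbp5, which compete for the steroid receptor complex of Hsp90, went opposite ways, Fkbp4 at -1.11 to -1.03 (edgeR, adjusted p of at most 9e-06) and Fkbp5 at 0.84 to 0.97 (adjusted p of at most 0.00015). Unc45a, a co-chaperone for myosin folding, was higher at 0.57 to 0.85.

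Of the other small heat shock proteins, 2 of 5 tested were higher and 0 lower in all 6 tables. Cryab was called lower in 5 tables and Hspb6 and Hspb11 in 3 each. The median log2 fold change of the list was -0.67 to -0.28 over the 6 tables. Hspb8, the partner of Bag3, had 571.6 ± 40.3 (SD, n = 5) normalised reads in treated and 215.4 ± 22.1 in untreated mice with Illumina GSNAP, a log2 fold change of 1.38 to 1.41 over the 6 tables (edgeR, adjusted p of at most 3.63e-08). Hspb7 was called on mean counts of only 6 and 0.4 reads in that table. Among 10 mitochondrial chaperones, the setting of Hspd1, 1 was higher (Clpx, 0.79 to 0.97) and 1 lower (Dnajc19, -0.73 to -0.45), and 7 were called in none. The subunits of TRiC, the cytosolic chaperonin, gave 3 higher of 8, led by Cct3 at 0.76 to 0.82.

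Of the 4 relatives in the endoplasmic reticulum 3 were higher, and the median log2 fold change of the 4 was 1.63 to 1.76 over the 6 tables. Hspa5 (BiP), the Hsp70 of that compartment, had 4879 ± 1290 (SD, n = 5) normalised reads in treated and 1197 ± 555 in untreated mice with Illumina GSNAP, a log2 fold change of 1.94 to 2.03. Hyou1, its Hsp110, stood at 1.80 to 2.06 and Hsp90b1, its Hsp90, at 1.46 to 1.49 (edgeR, adjusted p of at most 0.000306 for the 3 genes). The collagen chaperone Serpinh1 was not called. In the cytosol, the members Hspa8, Hsph1 and Hsp90ab1 had log2 fold changes of 0.79 to 0.86, 0.31 to 0.36 and -0.12 to -0.04. The other cytosolic Hsp70 and Hsp90 members stood at 1.59 to 2.21 (Hspa1a, on few reads), 0.66 to 0.79 (Hspa1b) and 0.46 to 0.63 (Hsp90aa1). The differences between the compartments were not tested.

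**Figure D5:**
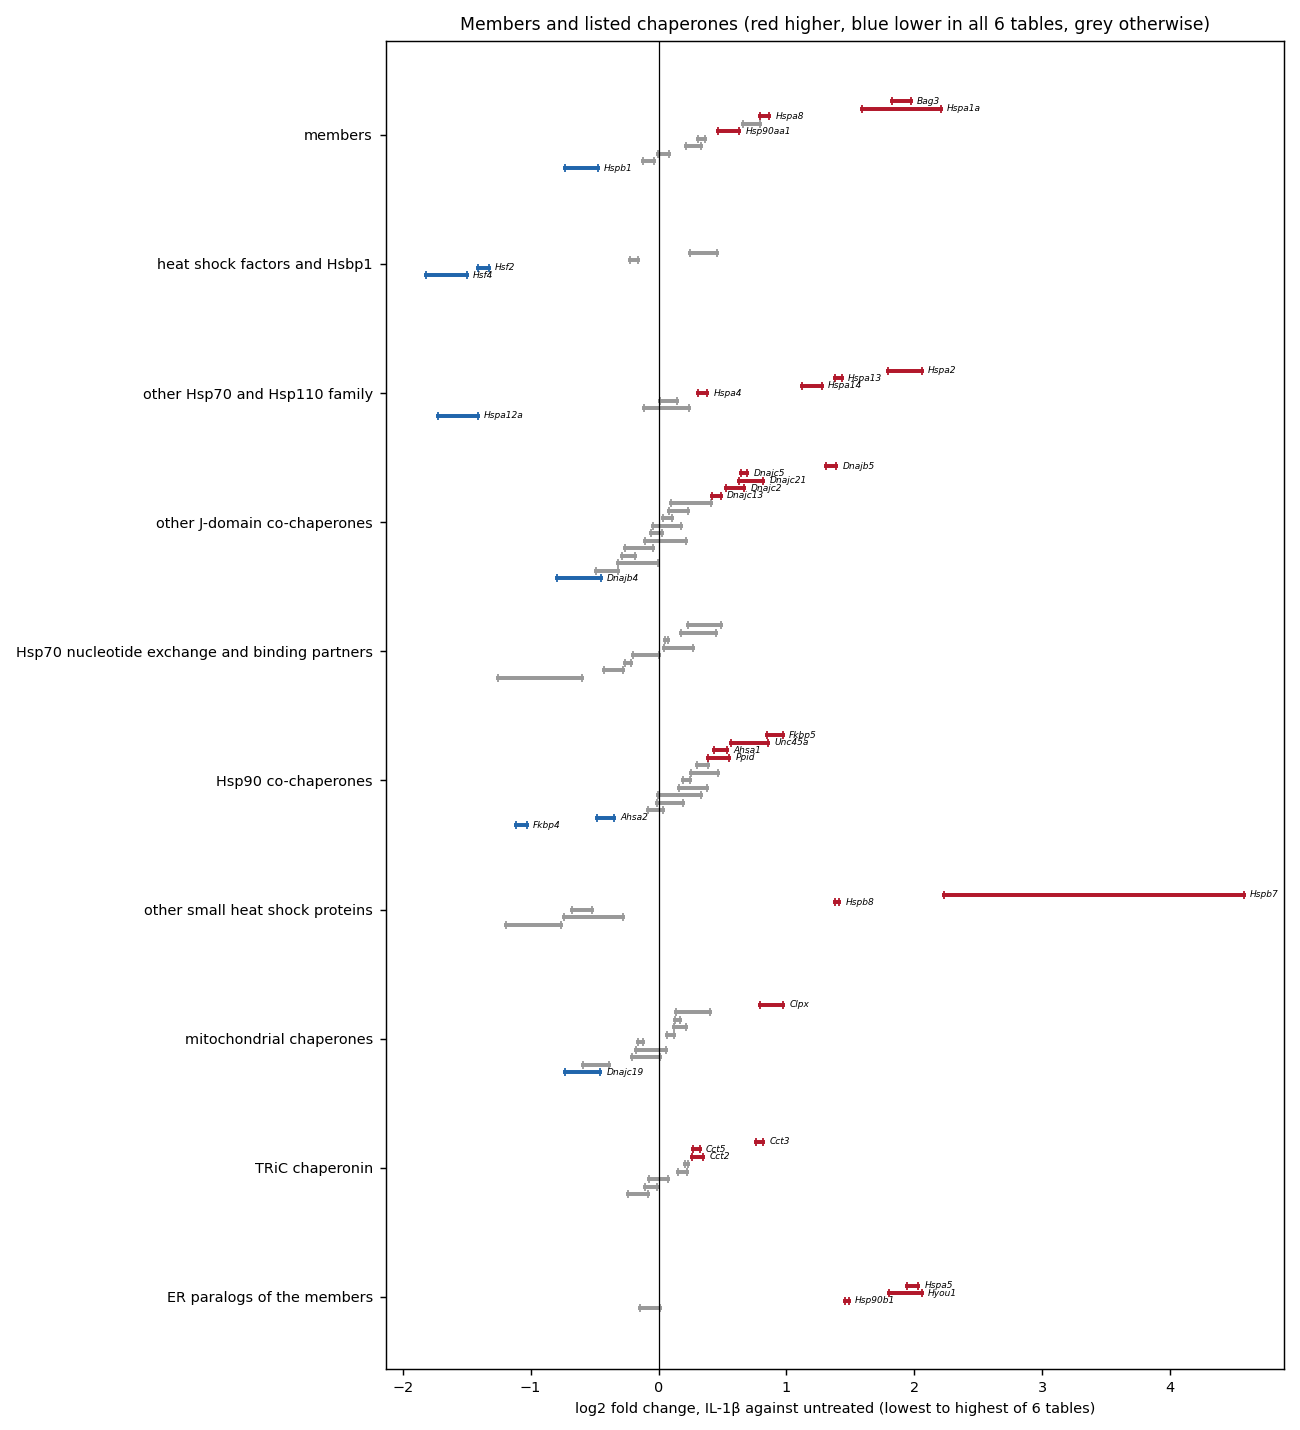
Lowest to highest log2 fold change over 6 tables (x axis) of the 10 members and the listed chaperone genes, with a line per gene and the lists on the y axis. Red lines are higher and blue lines lower in all 6 tables, among them Hspa5 at 1.94 to 2.03 and Fkbp4 at -1.11 to -1.03.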

How the data were processed

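Gene-level read counts of 20 liver libraries, in 6 tables, were used as deposited. Per the labels and the study's methods, the authors aligned reads to mm9 with GSNAP 2015-12-31, STAR 2.5.1b or STAR 2.5.1b followed by Bowtie2 2.2.9 (Ensembl annotation). They then re-sampled reads with PORT within each table, so treated and untreated mice were compared within a table. The platform comparison fitted both platforms' libraries of an aligner together. Counts and count ratios set side by side between aligners or platforms also carry the re-sampling of each table. Whether a read or a read pair was counted is not given in the sources used here. Totals were 10568530 to 16439683 reads a library, and shares of reads carry counting error on top of the spread given.

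Counts were TMM-scaled and tested with edgeR 4.0.16 (quasi-likelihood, robust; R 4.3.3) with Benjamini-Hochberg adjustment over 15578 genes, called at 0.05. Because the values are counts, this replaced the study's rank-sum test, which was run as an alternative beside DESeq2 1.42.0, limma-voom 3.58.1, other scalings and filters, and leaving out each mouse. The standard errors given with edgeR are approximations, the absolute log2 fold change divided by the square root of the test's F value. They can be off for very small changes. Scripts were tested on simulated data. Same-numbered libraries come from the same mouse by the labels, and the platform comparison used the mouse as a block. In the GSNAP tables the deviations of a mouse's 2 libraries correlated at 0.577 to 0.975 for 9 members, and at 0.05 for Hspb1. Pseudogenes were found with blastn 2.17.0 against GENCODE models on NCBIM37, and promoter windows are RefSeq's, with none used for Hspa8, Hsp90aa1 and Hsp90ab1.

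Members and gene lists were chosen with earlier results of these data known. All members are named, up to 3 genes of a list by the largest change with Illumina GSNAP among those called in all 6 tables (further named genes were chosen after their values were seen), up to 12 pseudogenes by count, 6 genes most like the members, and all listed markers of hepatocytes, Kupffer cells, neutrophils, endothelial cells, stellate cells and lymphocytes. Each mouse is 1 replicate.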

Additional observations from a re-analysis of the deposited data

Results flagged for a closer look

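In 120 groups of 5 mice (10 members, 6 tables, 2 treatments), 10 held a mouse far from the other 4 by Dixon's test, and chance alone marks about 1 group in 20. Values are normalised read counts. Hsp90aa1 in untreated mouse UNT_9575 was the highest of its group in all 3 Ion Torrent tables, with GSNAP at 124.7 (others 65.39 to 82.32), with STAR at 182.5 (others 105.5 to 124.6), and after Bowtie2 at 196.8 (others 115 to 129.8). Hsp90ab1 in treated mouse ILB_9583 was the lowest there, at 949.1 (others 1053 to 1089), 991.7 (1132 to 1169) and 921.4 (1021 to 1057). Hspb1 was lowest in treated mouse ILB_9577 with Ion Torrent STAR (11.02, others 18.07 to 20.04) and with STAR and Bowtie2 (10.33, others 15.32 to 17.3), and in untreated mouse UNT_9584 with Illumina GSNAP (6.762, others 9.564 to 10.54). Hsph1 was highest in treated mouse ILB_9578 with Illumina STAR (196.2, others 101.7 to 128.1). The 3 tables of a platform hold the same reads, so values of 1 mouse repeated over aligners are not independent.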

How the results depend on the processing

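No called value changed direction under any alternative run. By the study's rank-sum test on unscaled counts, members higher numbered 2 with Illumina GSNAP, 1 with Illumina STAR, 2 with Illumina STAR and Bowtie2, 1 with Ion Torrent STAR and 3 in the other Ion Torrent tables, and members lower 0 in the 3 Illumina tables and 2 in the 3 Ion Torrent tables (Hspb1 and Hsp90ab1), and the cause was not tested. It called Bag3 in 6 of 6 tables, Hspa1a, Hspa8 and Hspb1 in 3 each and Hsp90aa1 in none. Over the other alternatives members higher numbered 3 to 6 and members lower 1 in each. Hsp90aa1 was lost in 3 of 6 tables without TMM scaling and in 1 with limma-voom, and Hspa1b was called in 2 of 6 by DESeq2, by limma-voom and with genes of a mean count of at least 20, a filter that left Hspa1a untested in 3 tables. Bag3, Hspa1a, Hspa8 and Hspb1 kept their calls without any 1 mouse. Leaving out 1 mouse, the treated minus untreated share of Hspa1a in the pair ranged from 4.65 to 6.7 percentage points with Illumina GSNAP, 3.85 to 5.93 with Illumina STAR and 4.17 to 6.38 with Illumina STAR and Bowtie2. Without the replicate block the platform comparison still called 0 members with each aligner. Low counts limit Hspa1a with Illumina, at means of 7.9 (GSNAP), 6.4 (STAR) and 11.7 (STAR with Bowtie2) reads a library.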

Other observations

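Hspe1, which encodes the Hsp10 partner of Hspd1, also changed with the aligner, with mean counts of 608 reads with Illumina GSNAP and 1291 with Illumina STAR, against 771.4 and 832.1 with Ion Torrent. The pseudogenes of Hsp90ab1 drew reads on Ion Torrent more than on Illumina when Bowtie2 or GSNAP was used: Gm6368 held 446.3 reads a library with STAR and Bowtie2 and 309.6 with GSNAP on Ion Torrent, against 139.4 and 47.2 on Illumina, and 0.7 with Ion Torrent STAR.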
